A study of Saccharomyces cerevisiae with 6 samples.

Results

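The genes examined here encode the yeast proteasome: the subunits of its core, base and lid, the chaperones that assemble it, a pair of associated factors, and Rpn4, the activator of these genes. They were chosen by name, 43 genes in all, and each of the 43 was represented by 1 probe set among 5498 probe sets (5449 genes) with a gene name. The data come from 6 cultures of Saccharomyces cerevisiae BY4743 (a diploid strain in common laboratory use) grown in minimal medium at 30 °C to an optical density (OD600) of 1.0. The 3 LoaOOH cultures received 75 µM linoleic acid hydroperoxide, a lipid peroxide given at what the labels term an arresting dose, and the 3 methanol cultures received the solvent alone. All were harvested after 1 h, and each culture was measured on its own Affymetrix Yeast Genome 2.0 array. The labels call the cultures biological replicates and describe growth out of 1 colony, so n counts cultures and the SE covers the spread between them, not between independent clones. In BY4743 the genes URA3 and LEU2 are deleted, and URA3 averaged 3.37 in LoaOOH and 3.50 in methanol, below the brightest negative control probe set (5.15), while LEU2 averaged 5.64 and 5.39, just above it. Of 6 mating-type and haploid genes checked as markers of ploidy, MFA1, MFA2, STE2, STE3, RME1 and HO, none was at or below that control in either group, and all averaged below the lowest array median (10.59), so these levels do not settle the ploidy.

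The proteasome is the protease that degrades ubiquitin-tagged proteins in the cytosol and nucleus. Its core particle is a barrel of alpha and beta rings with the proteolytic sites inside, and a regulatory particle caps each end: the base, with a ring of ATPases that unfold substrates, and the lid, which removes ubiquitin. Rpn4 is a short-lived transcription activator that binds a common element in proteasome gene promoters and is itself degraded by the proteasome, a feedback that ties gene activity to degradation capacity. Its own gene is a known target of stress activators that include Yap1, Pdr1 and Hsf1.

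Messages for RPN4 and for a subset of subunits were higher in LoaOOH cultures, mostly by less than 2-fold, and no member fell by 1.5-fold or more. Of the 43 members, 26 rose (60.5%), 7 fell (16.3%) and 10 did not pass the test, limma's moderated test with a Benjamini-Hochberg adjusted p under 0.05 over all named probe sets. Over all named probe sets 36.8% rose and 41.9% fell. The share called in either direction was 76.7% among members and 78.7% over all probe sets. The members' median log2 difference, LoaOOH minus methanol, was 0.20, against -0.03 over all probe sets. Their lower and upper quartiles were 0.05 and 0.47, against -0.37 and 0.31 over all probe sets. Rises of at least 1.5-fold were called for 8 members (18.6%), where 12.3% of all probe sets had one, and a rise of at least 2-fold was called for 1 member, RPN4, where 5.02% of all probe sets had one. Falls of at least 1.5-fold, called for 14.3% of all probe sets (and of at least 2-fold for 4.15%), numbered 0 among members, and 19 members differed by less than 1.2-fold either way. The 3 LoaOOH arrays lay entirely above the 3 methanol arrays in 28 members and entirely below them in 7, or 35 in either direction (81.4%), where the shares over all probe sets were 38.1%, 43% and 81.1%. These counts describe the list and were not tested as a set.

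**Figure D1:**
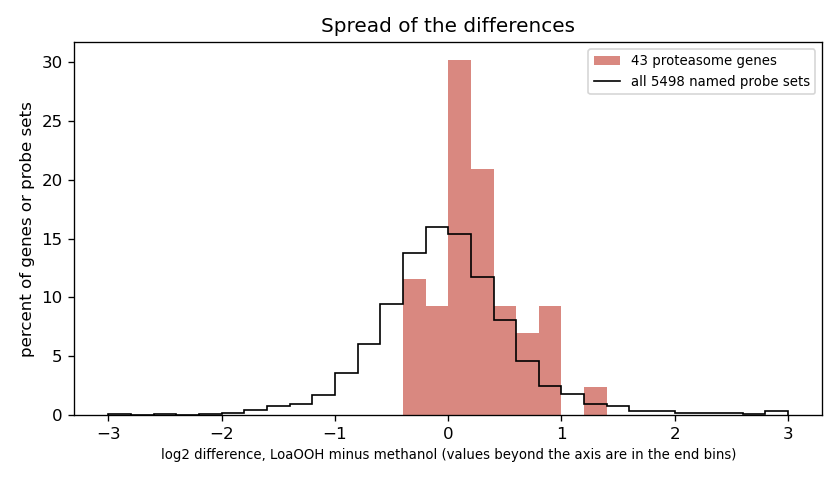
Share of the 43 proteasome genes (filled) and of all 5498 named probe sets (line) by log2 difference, LoaOOH minus methanol, in bins of 0.2 units. The proteasome genes lie between -0.39 and 1.25, with a median of 0.20, while the whole table runs from -4.67 to 5.57.

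These directions are relative to the typical message, and they depend on the scaling. Each value is an average over the cells of a culture, so fewer cells with a message and less message per cell cannot be told apart. The 36 poly-A spike-in probe sets, which report bacterial messages added to the RNA, averaged 6.93 ± 0.125 in LoaOOH arrays and 7.44 ± 0.165 in methanol arrays (SD, n = 3 each), and all 36 were lower in LoaOOH (exact two-sided permutation test on the array means, p = 0.1, the smallest that 3 against 3 arrays allow). The 17 ribosomal RNA probe sets differed by -0.64 in the same way (exact p = 0.1) and the 27 hybridisation controls by -0.02 (exact p = 0.8). Scaling each array to its spike-ins adds 0.518 to every log2 difference. The spike-in mean of an array is shared by all its genes, and the gene-by-gene test treats its error as separate for each gene. Calls and adjusted p-values in the spike-in scaling therefore overstate their certainty. In that scaling 38 of 43 members were called higher and 0 lower, where 65.9% of all probe sets were higher and 7.68% lower, and each of the 7 members that fell in the deposited scaling had a positive difference. The members' median was then 0.71, against 0.48 over all probe sets. Signal at the 3' end less that at the 5' end, which reflects how intact the RNA or its labelling was, moved by 0.58 for SRB4 and by -0.14 for ACT1 (exact p = 0.1 each). What part these control differences have in the results was not tested. Differences between genes of 1 array, such as the order of the subunits below, are not affected by adding such a constant.

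**Figure D2:**
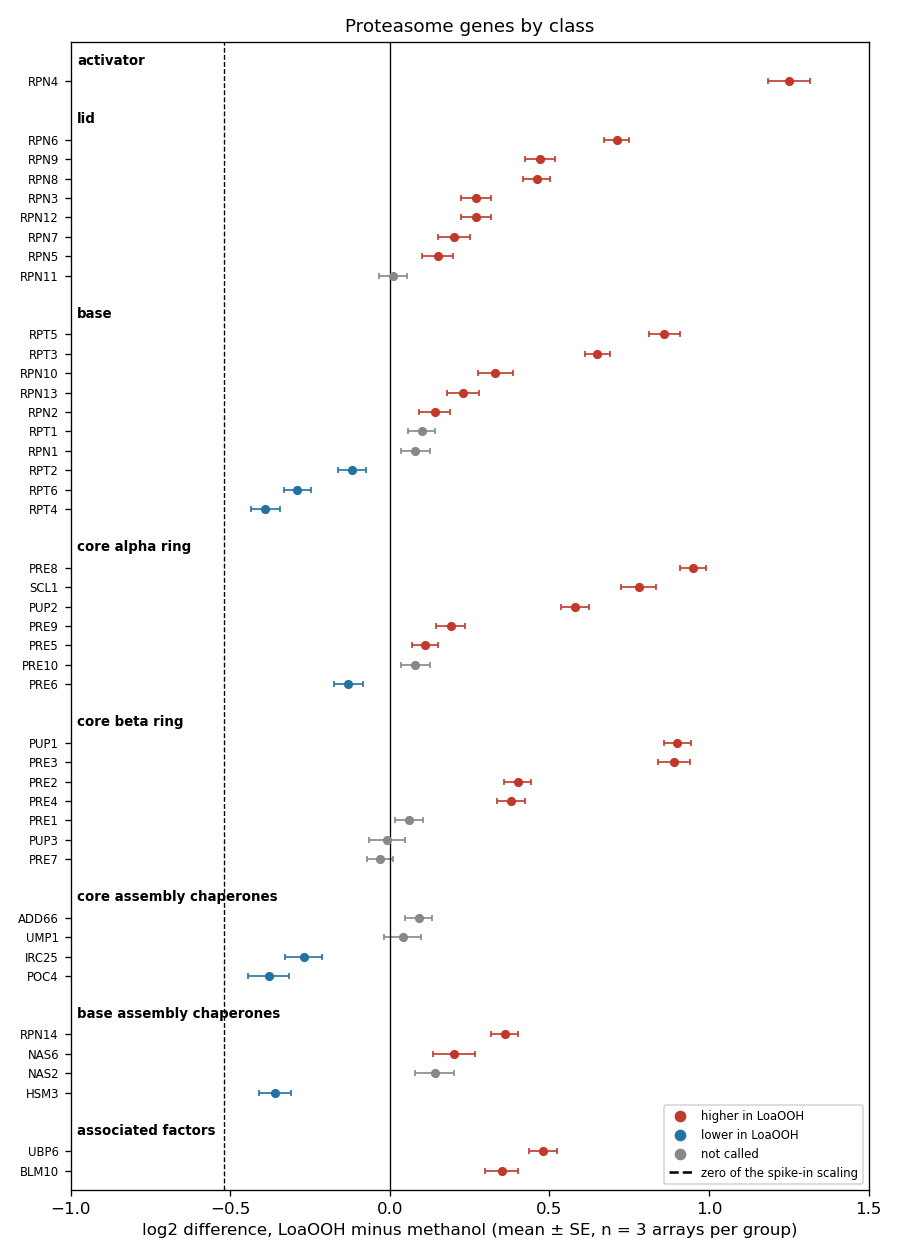
Log2 difference, LoaOOH minus methanol, of each of the 43 genes by class (points, with SE bars, n = 3 arrays per group), coloured by the call in the deposited scaling. RPN4 stands at 1.25 and all 8 lid genes at or above 0.01, and the dashed line at -0.518 marks zero of the spike-in scaling, left of which no gene lies.

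RPN4 had the largest difference of the 43. Its log2 values were 12.87, 12.91 and 12.89 in LoaOOH cultures and 11.73, 11.71 and 11.48 in methanol cultures. The groups are far apart, and methanol replicate 3 is the lowest array. The message was 2.38-fold higher in LoaOOH (log2 difference 1.25 with an SE of 0.0668, n = 3 arrays in each group, limma adjusted p = 2.86e-07), the 168th largest rise of the 5498 probe sets. In the spike-in scaling the difference was 1.77. Without any 1 array it lay between 1.17 and 1.29.

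Of 4 known activators of RPN4, 3 rose (75.0%, against 36.8% of all named probe sets). YAP1, the regulator of the peroxide response, rose by 0.56 (11.66, 11.63 and 11.68 in LoaOOH, against 11.13, 11.07 and 11.09 in methanol, adjusted p = 1.98e-06). The multidrug resistance activators PDR1 and PDR3 rose by 0.53 and 0.44 (adjusted p = 3.27e-06 and 1.1e-05). HSF1, the heat shock activator, differed by 0.13 with overlapping groups and was not called (adjusted p = 0.137), though it was with quantile normalisation (0.18, adjusted p = 0.0454). UBR2 and MUB1, parts of the ubiquitin ligase that targets Rpn4 for degradation, were measured too: UBR2 rose by 0.53 (adjusted p = 4.55e-05) and MUB1 by 0.14 (adjusted p = 0.0178), and the call of MUB1 was lost without LoaOOH replicate 1 (0.0502) or methanol replicate 2 (0.0501).

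In the lid, 7 of 8 genes rose (87.5%, against 36.8% of all named probe sets) and none fell, and the median log2 difference was 0.27. RPN6, a scaffold subunit that touches both the core and the base, led the 8 members with 13.14, 13.14 and 13.12 in LoaOOH and 12.46, 12.41 and 12.42 in methanol. Its LoaOOH arrays differ among themselves by far less than the gap to methanol, and the message was 1.63-fold higher (log2 difference 0.71, SE 0.0402, adjusted p = 4.22e-07). RPN9 (0.47) and RPN8 (0.46), the gene of the lid deubiquitinase's partner, formed the next step, followed by the scaffold genes RPN3 (0.27), RPN12 (0.27), RPN7 (0.20) and RPN5 (0.15). RPN11, the deubiquitinase itself, had 12.81, 12.86 and 12.85 in LoaOOH and 12.79, 12.81 and 12.88 in methanol. Its groups overlap and it was not called (log2 difference 0.01, SE 0.0439, adjusted p = 0.808). RPN5 was near the threshold (adjusted p = 0.0178) and lost its call without LoaOOH replicate 3 (0.0678), methanol replicate 1 (0.0675) or methanol replicate 2 (0.0622). In the spike-in scaling all 8 were called higher, with a median of 0.79, against 65.9% and 0.48 over all named probe sets.

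In the base, 5 of 10 genes rose (50.0%), 3 fell (30.0%) and 2 were not called, shares nearer to those of all named probe sets (36.8% higher and 41.9% lower) than in the lid, with a median of 0.12. The 3 that fell are all ATPase genes. RPT5 had 13.26, 13.23 and 13.22 in LoaOOH and 12.43, 12.41 and 12.31 in methanol, a 1.81-fold rise (log2 difference 0.86, SE 0.0473, adjusted p = 3.49e-07), and RPT3 rose 1.57-fold (0.65, adjusted p = 6.11e-07). RPT4 had 12.89, 12.92 and 12.89 in LoaOOH and 13.24, 13.26 and 13.35 in methanol. Its groups are apart in the opposite direction, a 1.31-fold fall (log2 difference -0.39, SE 0.0459, adjusted p = 5.03e-05), the lowest difference of the 43. RPT6 fell by 0.29 on the log2 scale (adjusted p = 0.000213) and RPT2 by 0.12 (adjusted p = 0.0292), and RPT1 (0.10) was not called (adjusted p = 0.0543) although its arrays do not overlap. All 3 falls are turned in the spike-in scaling, where RPT2 was called higher (0.40) and RPT4 (0.13) and RPT6 (0.23) were not called. RPT2 lost its call with median centring (-0.09, adjusted p = 0.0909) and without LoaOOH replicate 2 (0.0913), LoaOOH replicate 3 (0.0559), methanol replicate 2 (0.0702) or methanol replicate 3 (0.0655). RPT1 was called higher in some other settings: quantile normalisation (0.0446), median centring (0.0168), variance trend with robust fitting (0.0131) and array weights (0.02). It was called without the dimmest 25% of probe sets (0.0449), in the spike-in scaling (0.62, adjusted p = 1.24e-05) and without methanol replicate 3 (0.0314). It was not called with the replicate number as a block, with the mean of a gene's probe sets or at an adjusted p under 0.01. Nor was it called when any other array was left out.

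The 6 ATPases sit in the ring as 3 pairs, Rpt1 with Rpt2, Rpt6 with Rpt3 and Rpt4 with Rpt5, and in each pair 1 gene had a positive and the other a negative difference in the deposited scaling. The difference between the partners on the same array does not change when a constant is added to the array. For RPT5 minus RPT4 it was 0.37, 0.30 and 0.34 in LoaOOH and -0.81, -0.85 and -1.05 in methanol, a shift of 1.24 in the log2 ratio or 2.36-fold. For RPT3 minus RPT6 it was -0.38, -0.45 and -0.41 in LoaOOH and -1.30, -1.35 and -1.42 in methanol, a shift of 0.94 or 1.92-fold. RPT1 minus RPT2 moved least, with 0.77, 0.80 and 0.76 in LoaOOH and 0.55, 0.58 and 0.53 in methanol, a shift of 0.22 or 1.17-fold. The groups are apart in all 3 pairs. This follows from the genes themselves, since the LoaOOH arrays lie above the methanol arrays in RPT1, RPT3 and RPT5 and below them in RPT2, RPT4 and RPT6, so the separation was not tested and the shifts are a description. The pairs were picked after the members' values were known. Whether a ratio lies above or below zero has no meaning here, as the probe sets differ in brightness.

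**Figure D3:**
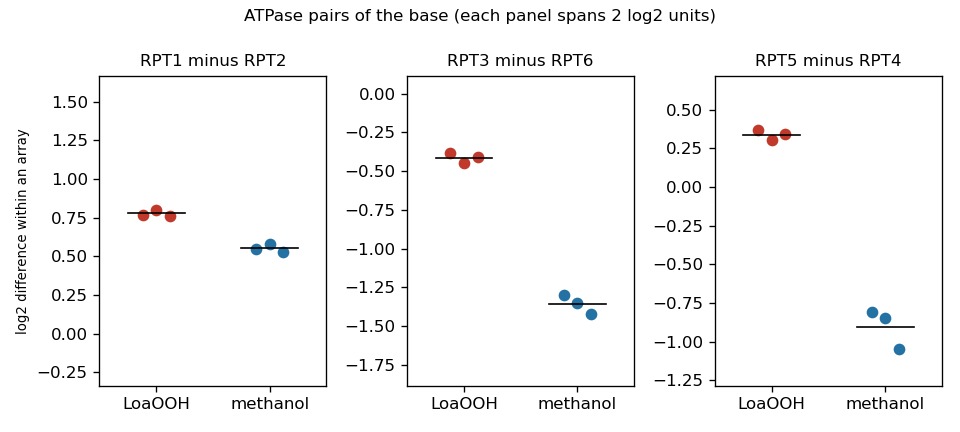
Difference of log2 values between the partner ATPase genes on each array (points, bars at the group mean, n = 3 per group), on axes of equal span. The LoaOOH arrays lie above the methanol arrays in each pair, by 1.24 for RPT5 minus RPT4, 0.94 for RPT3 minus RPT6 and 0.22 for RPT1 minus RPT2.

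Among the base genes that are not ATPases, RPN10 and RPN13, which encode ubiquitin receptors, rose by 0.33 and 0.23 (adjusted p = 0.000409 and 0.0024). RPN2, a large scaffold subunit, rose by 0.14 (adjusted p = 0.0293), a call lost with quantile normalisation (0.06, adjusted p = 0.331) and without LoaOOH replicate 1 (0.0748), LoaOOH replicate 2 (0.0668) or methanol replicate 3 (0.0686). RPN1, the other scaffold, which binds ubiquitin-like shuttle proteins, had 13.26, 13.24 and 13.14 in LoaOOH and 13.15, 13.14 and 13.12 in methanol. Its groups overlap, and it was not called (log2 difference 0.08, adjusted p = 0.146), though it was with median centring (0.11, adjusted p = 0.0475).

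The core rose in 9 of 14 genes (64.3%) and fell in 1 (7.14%), against 36.8% and 41.9% of all named probe sets. The median was 0.28, and the spread within each ring was wide. In the alpha ring, which gates entry and docks the caps, 5 of 7 genes rose (71.4%) and 1 fell (14.3%). PRE8 (alpha 2) had 13.37, 13.39 and 13.44 in LoaOOH and 12.46, 12.43 and 12.46 in methanol. The arrays of each group lie close together, and the message was 1.93-fold higher (log2 difference 0.95, SE 0.0415, adjusted p = 8.62e-08), the largest rise of any subunit. SCL1 (alpha 1) rose by 0.78 and PUP2 (alpha 5) by 0.58, whereas PRE9 (alpha 3, the dispensable subunit of the core) rose by 0.19 and PRE5 (alpha 6) by 0.11. PRE10 (alpha 7) had 13.96, 13.98 and 13.94 in LoaOOH and 13.87, 13.83 and 13.95 in methanol, with overlapping groups and no call (0.08, adjusted p = 0.137). PRE6 (alpha 4) was the core gene that fell, with 13.29, 13.35 and 13.34 in LoaOOH and 13.40, 13.44 and 13.51 in methanol (log2 difference -0.13, SE 0.046, adjusted p = 0.0318). This is a weak call: it was lost without LoaOOH replicate 1 (0.0824), 2 (0.0547) or 3 (0.0614) and without methanol replicate 2 (0.0734) or 3 (0.0753), as well as with median centring (-0.09, adjusted p = 0.0943), and it turned to a called rise of 0.39 in the spike-in scaling. PRE5 (adjusted p = 0.0428) lost its call without any 1 of the 6 arrays (0.0559 to 0.104) and with array weights (0.0512). PRE10 gained one without methanol replicate 3 (0.0361) and with quantile normalisation (0.0477), median centring (0.0443), variance trend with robust fitting (0.0442) or array weights (0.0164).

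In the beta ring, 4 of 7 genes rose (57.1%) and none fell in the deposited scaling, against 36.8% and 41.9% of all named probe sets. The genes of all 3 catalytic subunits were among those that rose. PUP1 (beta 2, the trypsin-like site) had 12.97, 13.03 and 13.00 in LoaOOH and 12.12, 12.13 and 12.06 in methanol, a rise of 1.86-fold (log2 difference 0.90, SE 0.0428, adjusted p = 1.42e-07). PRE3 (beta 1, the caspase-like site) rose by 0.89 (13.52, 13.48 and 13.55 in LoaOOH, against 12.64, 12.69 and 12.54 in methanol). PRE2 (beta 5, the chymotrypsin-like site) rose by 0.40, about as much as PRE4 (beta 7), which has no active site of its own and rose by 0.38. In these 4 genes each LoaOOH array lies above each methanol array. The other 3 were not called: PRE1 (beta 4) at 0.06, PRE7 (beta 6) at -0.03 and PUP3 (beta 3) at -0.01. With quantile normalisation PRE7 was called lower (-0.12, adjusted p = 0.0165). PUP3 had 13.34, 13.34 and 13.39 in LoaOOH and 13.28, 13.33 and 13.48 in methanol (adjusted p = 0.93), so that the LoaOOH values fall within the range of the methanol values. In the spike-in scaling all 14 core genes were called higher, where 65.9% of all named probe sets were. Their differences ran from 0.39 for PRE6 to 1.47 for PRE8, which leaves their order as it was.

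**Figure D4:**
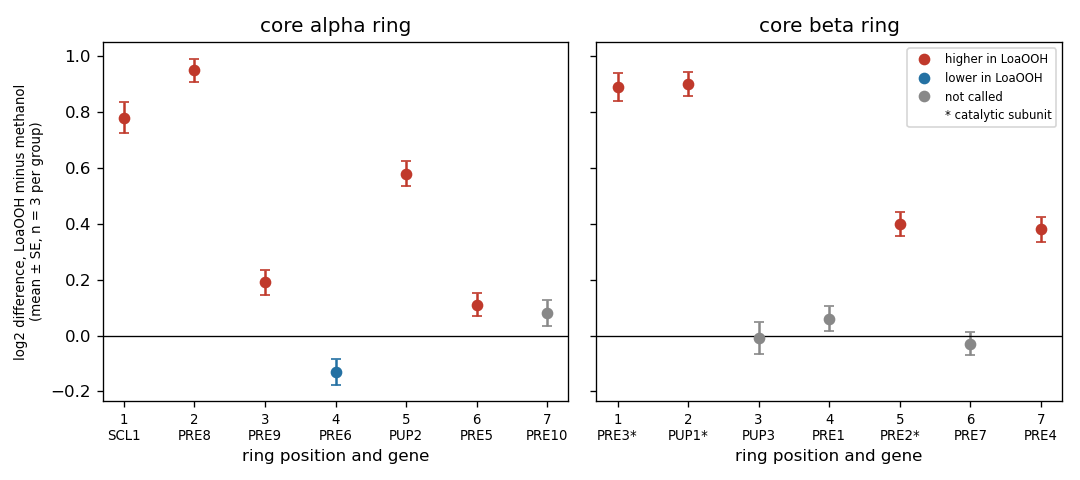
Log2 difference, LoaOOH minus methanol, of the 14 core subunit genes by position in the alpha and beta rings (points, with SE bars, n = 3 arrays per group, deposited scaling). Alpha 1, 2 and 5 and beta 1 and 2 lie between 0.58 and 0.95, and the others between -0.13 (PRE6, which turned to 0.39 in the spike-in scaling) and 0.40.

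Of the 8 assembly chaperone genes 2 rose (25%), 3 fell (37.5%) and 3 were not called (median 0.07). Over all named probe sets 36.8% rose and 41.9% fell with a median of -0.03, so the mix was close to that of the whole table. All 3 falls were lost in the spike-in scaling, where 5 of the 8 were called higher, against 65.9% of all named probe sets. Among the core chaperones, IRC25 and POC4, which encode the partners of a heterodimer that helps build the alpha ring, both fell. POC4 had 10.64, 10.76 and 10.79 in LoaOOH and 11.02, 11.07 and 11.22 in methanol. The groups do not overlap, and the difference was -0.38 (SE 0.0639, adjusted p = 0.000508, spike-in scaling 0.14), while IRC25 had a difference of -0.27 (adjusted p = 0.00206, spike-in scaling 0.25). ADD66, which encodes a partner in the other alpha ring heterodimer, differed by 0.09 and was not called (adjusted p = 0.0694), though it was with quantile normalisation (0.0305), median centring (0.021) or array weights (0.0237), whereas PBA1, the gene of its partner and not one of the 43, rose by 0.61 (adjusted p = 2.77e-06). UMP1, which guides maturation of the core, had 12.36, 12.42 and 12.42 in LoaOOH and 12.24, 12.37 and 12.45 in methanol and was not called (0.04, adjusted p = 0.492).

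The 4 chaperones of the base each hold particular ATPases. RPN14 and NAS6, which bind the Rpt6 and Rpt3 subunits, rose by 0.36 and 0.20. RPN14 had 9.87, 9.95 and 9.90 in LoaOOH and 9.53, 9.54 and 9.56 in methanol (SE 0.0419, adjusted p = 4.17e-05). The call of NAS6 (adjusted p = 0.0183) was lost without LoaOOH replicate 2 (0.0592), LoaOOH replicate 3 (0.055) or methanol replicate 1 (0.0564). HSM3, which binds Rpt1, fell, with 10.05, 10.08 and 10.06 in LoaOOH and 10.35, 10.42 and 10.51 in methanol (log2 difference -0.36, SE 0.0502, adjusted p = 0.000133), a difference that turned to 0.15 in the spike-in scaling and was not called there. NAS2, which binds Rpt5, had 10.55, 10.61 and 10.73 in LoaOOH and 10.43, 10.49 and 10.58 in methanol, and with overlapping groups it was not called (0.14, adjusted p = 0.0647). It gained a call with quantile normalisation (0.027), median centring (0.0291), array weights (0.00465) or without the dimmest 25% of probe sets (0.0487), and without LoaOOH replicate 1 (0.0314) or methanol replicate 3 (0.0299).

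Both associated factors rose, as did 36.8% of all named probe sets. UBP6, the deubiquitinase that docks on the base and recycles ubiquitin, had 13.04, 12.99 and 13.08 in LoaOOH and 12.53, 12.56 and 12.57 in methanol, a rise of 1.40-fold (log2 difference 0.48, SE 0.0435, adjusted p = 7.88e-06). BLM10, an alternative cap of the core, had 11.84, 11.75 and 11.69 in LoaOOH and 11.46, 11.40 and 11.36 in methanol and rose by 0.35 (adjusted p = 0.000195). In both genes the groups are apart.

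**Figure D5:**
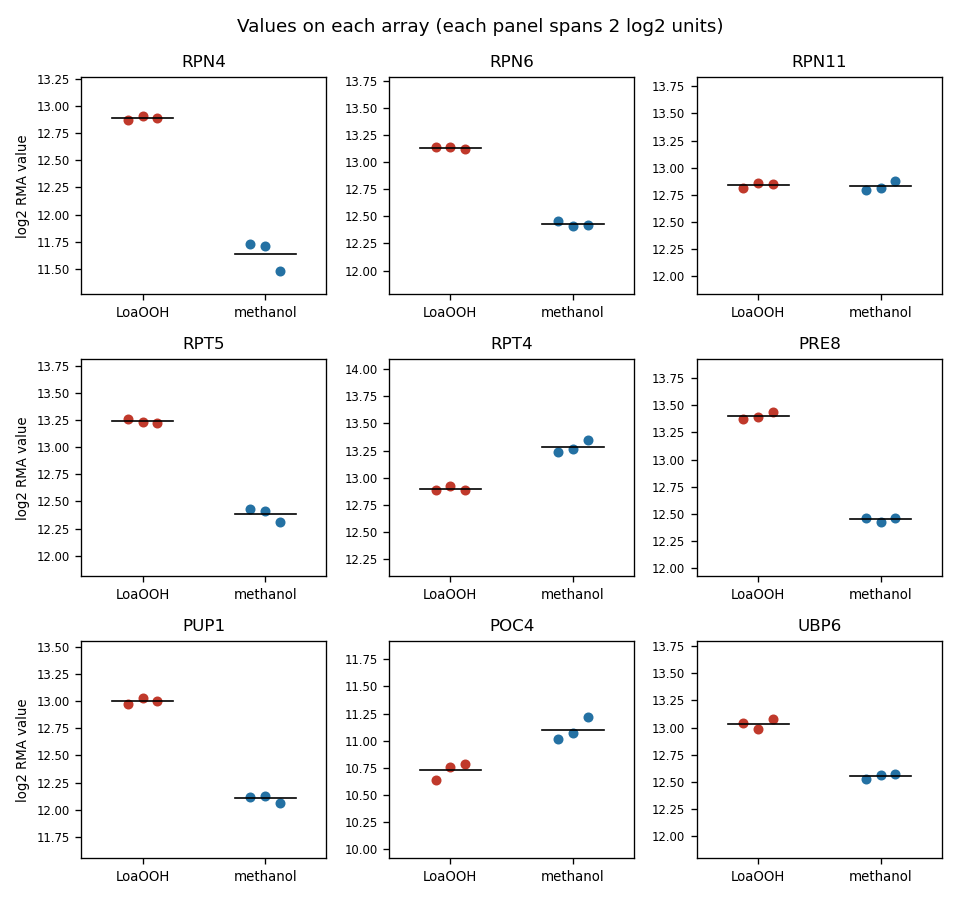
Log2 RMA values on each of the 6 arrays for 9 of the genes (points, bars at the group mean, n = 3 per group), on axes of equal span. RPN4, RPN6, RPT5, PRE8, PUP1 and UBP6 are higher on each LoaOOH array, RPT4 and POC4 are lower on each in the deposited scaling (positive in the spike-in scaling), and RPN11 overlaps.

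Replicates of these genes agreed closely: the SE of a member's difference lay between 0.0396 and 0.0668, with a median of 0.0459 against 0.0527 over all probe sets. Of the 33 called members 27 kept their call without any 1 array. Among the methanol cultures, replicate 3 was the array farthest from the other two in 33 of the 43 members. Without it, 27 members were called higher and 5 lower, and RPN4 rose by 1.17.

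Further genes that work with the proteasome also went in both directions. Of 8 additional proteasome-associated genes 4 rose (50.0%) and 3 fell (37.5%), against 36.8% and 41.9% of all named probe sets. SEM1, a small subunit of the lid, and ECM29, which tethers the core to the regulatory particle, each rose by 0.73 (adjusted p = 7.17e-07 and 7.15e-07). CIC1, whose product also takes part in ribosome assembly, and FUB1, a relative of a mammalian proteasome inhibitor gene, had differences of -0.46 and -0.44 (adjusted p = 0.000112 and 0.000162), which turned to 0.06 and 0.08, not called, in the spike-in scaling.

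Of 13 genes for ubiquitin, its activation and its conjugation, 7 rose (53.8%) and 5 fell (38.5%), with a median of 0.17. Over all named probe sets 36.8% rose and 41.9% fell. UBC5, a conjugating enzyme for abnormal and short-lived proteins, had 12.48, 12.43 and 12.50 in LoaOOH and 11.49, 11.59 and 11.41 in methanol and rose 1.96-fold (log2 difference 0.97, SE 0.0539, adjusted p = 3.54e-07), whereas its close paralog UBC4 was not called (-0.07, adjusted p = 0.168, and 0.45 in the spike-in scaling); with array weights it was called lower (-0.10, adjusted p = 0.0196). The coding sequences of this pair are alike, so cross-hybridisation between their probe sets is possible and was not tested. UBA1, the activating enzyme, rose by 0.33 (adjusted p = 9.31e-05). UBC7 and UBC6, conjugating enzymes of degradation at the endoplasmic reticulum, fell by 0.66 and 0.36 on the log2 scale (adjusted p = 7.61e-06 and 5.87e-05). In the spike-in scaling neither was called, at -0.14 for UBC7 and 0.16 for UBC6.

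Among these further genes the largest rises were in genes of the Cdc48 segregase, the ATPase that extracts ubiquitin-tagged proteins, and of shuttle factors. Of 14 such genes 8 rose (57.1%), 4 of them at least 2-fold, and 3 fell (21.4%), with a median of 0.29. Over all named probe sets 36.8% rose, 5.02% rose at least 2-fold, and 41.9% fell. UBX4, a Cdc48 cofactor, had 11.70, 11.65 and 11.59 in LoaOOH and 10.23, 10.23 and 10.12 in methanol and rose 2.74-fold (adjusted p = 2.51e-08). DDI1, a shuttle factor with a protease fold, had 10.58, 10.66 and 10.60 in LoaOOH and 9.22, 9.14 and 9.21 in methanol and rose 2.69-fold (adjusted p = 1.36e-08). The other rises of at least 2-fold were those of UFD1 (1.22), which with Npl4 forms the main substrate adaptor of Cdc48, and UBX5 (1.21), another cofactor, and NPL4 rose by 0.49. CDC48 itself was not called (-0.01, adjusted p = 0.811, and 0.51 in the spike-in scaling). DSK2, another shuttle, and VMS1, a Cdc48 partner, had differences of -0.59 and -0.54 (adjusted p = 0.000111 and 3.34e-05), neither of them called in the spike-in scaling (-0.08 and -0.02).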

How the data were processed

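The deposited table holds log2 values that the authors made with RMA; per the submitters' processing notes RMA and Partek were used, without roles or versions. RMA corrects background, quantile-normalises and summarises probes, so a change shared by most messages would not show. Array medians lay between 10.59 and 10.63, and the number of arrays limits the precision. Of 5900 probe sets, 402 had no gene name in the platform annotation (controls included) and were not tested; all 5498 others matched the R64 gene table, used for names only. Groups came from sample titles.

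LoaOOH was compared with methanol with the limma package (version 3.58.1, R version 4.3.3; functions lmFit and eBayes, two-sided, no covariate) over all 5498 probe sets. Differences are LoaOOH minus methanol, with moderated SE, and 1 gene (PBA1) was found by an older name. Values of 1 number per array were compared by exact permutation. On simulated data with independent noise the procedure called 64% of true log2 differences of 0.25 and 100% of those of 0.5 or more. It called 0.227% of unchanged probe sets. Far fewer probe sets were changed there than were called in the data (78.7%), so these rates may not carry over. Alternatives covered scaling, variance model, filter, threshold, block and arrays left out. Members, lists and tests were chosen with earlier results of these data known. All members are named; values on all arrays are given for RPN4 and, per class, for the largest called rise, largest called fall and largest p, with PRE3 and RPT pairs added after their values were seen. Of the other lists, up to 2 called genes each way and the RPN4 activators are named; MUB1, PBA1, UBC4, UFD1, UBX5, NPL4 and CDC48 were added after their values were seen. Error is the spread between these cultures, which may be technical: per the labels' protocols they were grown from 1 colony, and whether they also shared a parent culture is not given in the sources used here. Promoter elements were not analysed here.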

Additional observations from a re-analysis of the deposited data

How the results depend on the processing

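In the spike-in scaling 38 members were called higher and 0 lower; base genes were 8 higher and 0 lower, core genes 14 higher and 0 lower, and the medians were 0.71 for all members, 0.79 for the lid, 0.64 for the base and 0.80 for the core. In the same scaling 16 named genes turned to positive values: RPT2 (0.40), RPT4 (0.13), RPT6 (0.23), PRE6 (0.39), PUP3 (0.51), PRE7 (0.49), IRC25 (0.25), POC4 (0.14), HSM3 (0.15), CIC1 (0.06), FUB1 (0.08), UBC6 (0.16), HUL4 (0.20), RSP5 (0.31), UBC4 (0.45) and CDC48 (0.51). That follows from adding 0.518 to each difference. Over all named probe sets 65.9% were called higher and 7.68% lower in the spike-in scaling. With quantile normalisation 2 core genes were called lower (PRE6 and PRE7) and the medians were 0.21 for the lid, 0.08 for the base and 0.24 for the core; with median centring 0 core genes were lower and the medians were 0.23 for all members, 0.30, 0.15 and 0.32; at an adjusted p under 0.01, 22 members were higher and 5 lower, with 0 core genes lower. Members higher and lower numbered 29 and 8 with quantile normalisation and 31 and 5 with median centring. The cause of these shifts was not tested. Leaving out 1 array at a time gave 23 to 27 members higher, 5 to 7 lower, 0 to 1 core genes lower and medians of 0.17 to 0.24 for all members; over all probe sets it gave 4053 to 4279 calls, against 4327. With the replicate number as a block 27 members were called higher, with NAS2 gained (adjusted p = 0.014), and 7 lower, and 4453 probe sets in all; HSF1 gained a call too (0.0302). Same-numbered arrays deviated together at correlations of 0.31, 0.05 and 0.26, and 2 of 3 LoaOOH arrays correlated best with their own number. The sample titles give a replicate number and no pairing, and the main fit used no block. Whether same-numbered arrays share a batch was not tested. The other settings (variance trend with robust fitting, array weights, a filter that drops the 25% of probe sets with the lowest mean, the mean of a gene's probe sets, which is the same for members with 1 probe set each) gave 26 to 29 members higher and 7 lower. The planned search of promoter letters was not run. A probe set's log2 difference understates large changes near background, but the lowest member value was 9.53, far above the brightest negative control (5.15).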

Other observations

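Ubiquitin ligases and deubiquitinases, which add and remove the tag that the proteasome reads, went in both directions, as all named probe sets did (36.8% higher and 41.9% lower). Of 9 ligase genes 4 rose, 2 fell and 3 were not called. HUL5, a ligase that works on the proteasome itself and opposes Ubp6, had 11.15, 11.16 and 11.11 in LoaOOH and 10.48, 10.48 and 10.47 in methanol and rose 1.59-fold (limma, log2 difference 0.67, SE 0.0399, adjusted p = 5.79e-07), so that its message and that of UBP6 were both higher. HUL4 and RSP5 had differences of -0.32 and -0.21 (adjusted p = 0.000268 and 0.00182), both turned positive in the spike-in scaling.

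Of 18 deubiquitinase genes 4 rose (22.2%), 6 fell (33.3%) and 8 were not called, where 36.8% of all named probe sets rose and 41.9% fell. UBP11 had 10.23, 10.16 and 10.14 in LoaOOH and 8.99, 9.01 and 8.95 in methanol and rose 2.29-fold (limma, adjusted p = 3.11e-08), nearly as much as RPN4. OTU1, which acts with Cdc48, rose by 0.72 (adjusted p = 1.74e-06). DOA4, which recovers ubiquitin at the endosome, and UBP1 had differences of -0.58 and -0.56 (adjusted p = 2.24e-05 and 2.67e-06), and in the spike-in scaling neither was called (-0.06 and -0.04).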
